A study of Mus musculus with 8 samples.

Results

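The 10 genes described here encode cytosolic aminoacyl-tRNA synthetases, the enzymes that join each amino acid to its transfer RNA. They are Sars, Nars, Aars, Wars, Mars, Gars, Eprs, Tars, Yars and Iars, and they were taken by symbol from the 24421 genes of the count tables, in which all 10 had a column in each of the 8 samples. The rule uses the gene names alone, although the family was picked with earlier results of these data known.

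Islets were isolated from 8-week-old C57BL/6J male mice and dispersed into single cells, whose RNA was counted in droplets. The 4 control samples came from mice that were not operated on. The other 4 samples came from mice with partial pancreatectomy (PPTx), in which 50% of the pancreas was removed 2 days before islet isolation. Each sample pooled islets of several mice or came from 1 mouse, the resection of the PPTx group was not matched by a sham operation, and the islet endocrine cells left after the resection are the ones measured.

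Charged transfer RNAs feed the ribosome, which in a beta cell spends much of its work on preproinsulin. Each synthetase serves its own amino acid, and cytosolic enzymes are encoded by other genes than most mitochondrial ones. Some of the cytosolic enzymes, among them those encoded by Eprs, Iars and Mars, sit together in a multisynthetase complex with the scaffold proteins encoded by Aimp1, Aimp2 and Eef1e1, whereas those for serine, asparagine, alanine, tryptophan, glycine, threonine and tyrosine work outside it. Several synthetase genes are textbook targets of Atf4, the transcription factor that is translated when amino acids run short or proteins misfold in the endoplasmic reticulum (ER), and that binds with C/EBP partners to an element with the core TGATGNAA.

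The promoters are shown because that element offers a way to group the genes that does not use their expression. RefSeq (GRCm38.p6, the same assembly as mm10) gave a window from 250 bases before to 50 bases after the start site for 8 of the 10 genes, Mars under its newer symbol Mars1, and for neither Wars nor Nars. TGATGNAA was searched on both strands, where its reverse complement reads TTNCATCA. It was found in 5 of these 8 windows, against 1304 of all 32851 windows of 300 bases (3.97%). A match is a run of letters and not evidence of binding. Below are the 40 bases before and the 20 bases after each start site, 5′ to 3′ on the gene's strand, with the matches in capitals.
Gars, chr6:55037961-55038020, plus strand: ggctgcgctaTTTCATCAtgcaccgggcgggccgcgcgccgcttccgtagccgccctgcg
Aars, chr8:111033802-111033861, plus strand: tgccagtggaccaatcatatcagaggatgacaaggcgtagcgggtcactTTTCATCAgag
Tars, chr15:11399639-11399698, minus strand: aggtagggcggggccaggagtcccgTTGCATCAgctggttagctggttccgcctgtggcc
Yars, chr4:129189863-129189922, plus strand: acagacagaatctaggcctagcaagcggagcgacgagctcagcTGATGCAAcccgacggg
Iars, chr13:49682090-49682149, plus strand: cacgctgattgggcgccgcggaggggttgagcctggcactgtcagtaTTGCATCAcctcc
Sars, chr3:108445240-108445299, minus strand: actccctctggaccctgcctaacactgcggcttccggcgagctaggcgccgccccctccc
Eprs, chr1:185363004-185363063, plus strand: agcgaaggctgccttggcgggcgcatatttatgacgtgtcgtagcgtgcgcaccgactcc
Mars, chr10:127311767-127311826, minus strand: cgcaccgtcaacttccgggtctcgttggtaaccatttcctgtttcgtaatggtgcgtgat

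The matches in Gars and Tars began 30 and 15 bases before the start site, and those in Yars, Iars and Aars began at bases 4, 8 and 10 after it. Aars held another match that began 112 bases before the start. The start sites used for Aars, Eprs and Yars lie inside the annotated span of the gene, which begins farther upstream (chr8:111027778-111055569 for Aars, chr1:185361417-185428360 for Eprs and chr4:129189734-129219240 for Yars), so other start sites of these genes were not searched. The Sars, Eprs and Mars windows held no match. Of the cytosolic synthetase and scaffold genes outside the 10, 8 had a window that was searched, and 0 of these held the element. Of 26 genes listed as Atf4 and its targets, 22 had such a window and 6 held it.

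Cells were classed by their leading hormone. A cell whose UMIs of Ins1 plus Ins2, Ppy, Gcg or Sst were at least 2 times those of the next of these hormones took that name, where a UMI is a molecular identifier that stands for 1 captured transcript. Of 1232 kept cells, 953 were insulin-rich, 130 Ppy-rich, 114 Gcg-rich and 13 Sst-rich, and 22 stayed mixed. Depth ran from 227439 UMIs in the 65 cells of control replicate 1 to 1580152 UMIs in control replicate 3, and 1 barcode occurred in 2 samples. Marker genes matched the class names, since Ucn3 stood at 530.7 CPM (UMIs per 1000000 UMIs of the class) in the pooled insulin-rich cells, 6.78 CPM in Ppy-rich and 10.3 CPM in Gcg-rich cells, and Irx1, an alpha-cell factor, at 144.0 CPM in Gcg-rich cells against 0.627 CPM in insulin-rich cells. Of the beta-cell factors, Mafa was close to absent in insulin-rich cells (0.314 CPM) and Pdx1 low (6.59 CPM). Insulin transcripts took 58.2% of the UMIs of insulin-rich cells and 0.956% and 0.861% of those of Ppy-rich and Gcg-rich cells. Ppy-rich, Gcg-rich and Sst-rich cells together are called other-hormone cells.

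In insulin-rich cells the 10 genes gave 3676 UMIs, and Gars and Sars supplied the most. Values are means over the 8 samples of the CPM of a sample's summed insulin-rich cells, from UMIs counted at the 3′ end of transcripts, which do not grow with transcript length and were not divided by it. Gars, for glycine, averaged 115.2 ± 9.17 CPM (SD, n = 8) and Sars, for serine, 114.6 ± 16.2 CPM (SD, n = 8), and Gars exceeded Sars in 4 of the 8 samples. These neighbours could not be ordered. Nars, for asparagine, followed at 69.7 ± 19.0 CPM (SD, n = 8), below Sars in all 8 samples. From Nars down to Yars each gene lay within the spread of the next, with Wars, for tryptophan, at 65.1 ± 14.3 CPM (SD, n = 8) and Aars, for alanine, at 57.4 ± 22.1 CPM (SD, n = 8). Eprs, whose product charges both glutamate and proline, stood at 45.8 ± 16.7 CPM (SD, n = 8). Tars, for threonine, averaged 38.8 ± 9.47 CPM (SD, n = 8), Yars, for tyrosine, 35.1 ± 13.0 CPM (SD, n = 8), and Iars, for isoleucine, 24.8 ± 7.58 CPM (SD, n = 8). Mars, for methionine, was the lowest at 13.2 ± 5.65 CPM (SD, n = 8) and below Iars in all 8 samples.

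Single cells carried few of these transcripts. An insulin-rich cell held a median of 3 UMIs of the 10 genes together, and 65 of the 953 cells (6.82%) held none, at a median depth of 6061 UMIs per cell. A UMI of Gars was present in 456 insulin-rich cells (47.8%), and of Sars likewise in 456. Mars gave 88 UMIs in all, spread over 79 cells (8.29%). After each cell had been thinned to 2000 UMIs, no UMI of the 10 genes was left in 31.8% of insulin-rich, 50.8% of Ppy-rich and 39.5% of Gcg-rich cells, against 6.82%, 18.5% and 18.4% at the cells' own depth. Levels below therefore come from sums over a sample's cells, and cells were not used as replicates.

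Outside the 10 genes, the one closest in pattern to the summed synthetases across samples was Ier3ip1. The measure was the Pearson correlation of log2 CPM in insulin-rich cells over the 8 samples, among 414 candidates with at least 100 CPM in every sample. It was 0.957 for Ier3ip1 (Spearman 0.786), 0.858 for Marcks (0.810), 0.827 for Spc25 (0.619), 0.820 for Gnptg (0.595) and 0.794 for Rplp2 (0.619). Both values of each point come from the same library, and no test was made.

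The first comparison asked whether the synthetase transcripts of insulin-rich cells differed 2 days after PPTx. None of the 10 genes was called, in a fit that called 17 of the 5911 genes tested (0.288%; edgeR's quasi-likelihood test with Benjamini-Hochberg adjustment over all genes, 4 samples against 4). An unadjusted p below 0.05 was reached by 0 of the 10 as well, where 558 of the 5911 genes reached it. DESeq2 called 0 of the 10, where it called 37 of 14139 genes. Over the 10 genes the median log2 fold change of PPTx over control was 0.033, against −0.009 over all genes tested, and 5 lay above 0.

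Nars came closest. Its level was 40.8, 80.5, 50.4 and 54.0 CPM in control replicates 1 to 4 and 75.7, 87.9, 75.8 and 93.0 CPM in PPTx replicates 1 to 4. The groups overlapped only through control replicate 2, which lay inside the range of the PPTx samples. The log2 fold change was 0.41 (SE 0.21, adjusted p = 0.551 by edgeR), and an exact permutation test of the CPM, two-sided, gave p = 0.0857, where 0.0286 is the smallest p that 4 samples against 4 allow.

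Wars had the same exact permutation p of 0.0857, with 45.9, 57.2, 67.7 and 52.8 CPM in control and 83.3, 87.1, 66.4 and 60.2 CPM in PPTx samples. Here PPTx replicates 3 and 4 fell below the highest control sample, replicate 3. The edgeR log2 fold change was 0.23 (SE 0.20, adjusted p = 0.764).

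The 2 most abundant genes covered nearly the same range in both groups. Gars was at 107.0, 108.0, 114.9 and 126.3 CPM in control and 113.5, 103.8, 118.3 and 129.4 CPM in PPTx samples, with a log2 fold change of −0.11 (95% interval −0.45 to 0.24). Sars was at 137.6, 120.7, 97.6 and 105.7 CPM in control and 126.2, 129.9, 93.4 and 105.7 CPM in PPTx samples, with a log2 fold change of −0.08 (95% interval −0.42 to 0.26). The intervals hold 0 and do not reach a log2 change of 0.5 in either direction.

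Aars was at 107.0, 67.8, 41.7 and 42.5 CPM in control and 56.8, 53.1, 39.4 and 51.0 CPM in PPTx samples. Control replicate 1, the shallowest library, set the high end with 21 UMIs of Aars. Eprs ran the other way in the same library, with 15.3 CPM there, 31.8, 59.0 and 49.4 CPM in control replicates 2 to 4 and 39.1, 48.3, 68.5 and 54.7 CPM in PPTx samples. For Aars the log2 fold change was −0.28 (adjusted p = 0.782 by edgeR), and for Eprs it was 0.09 (adjusted p = 0.955 by edgeR). Log2 fold changes of the low genes were −0.02 for Mars, 0.22 for Tars, −0.12 for Yars and 0.22 for Iars, with adjusted p between 0.837 and 1.0 by edgeR.

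**Figure D1:**
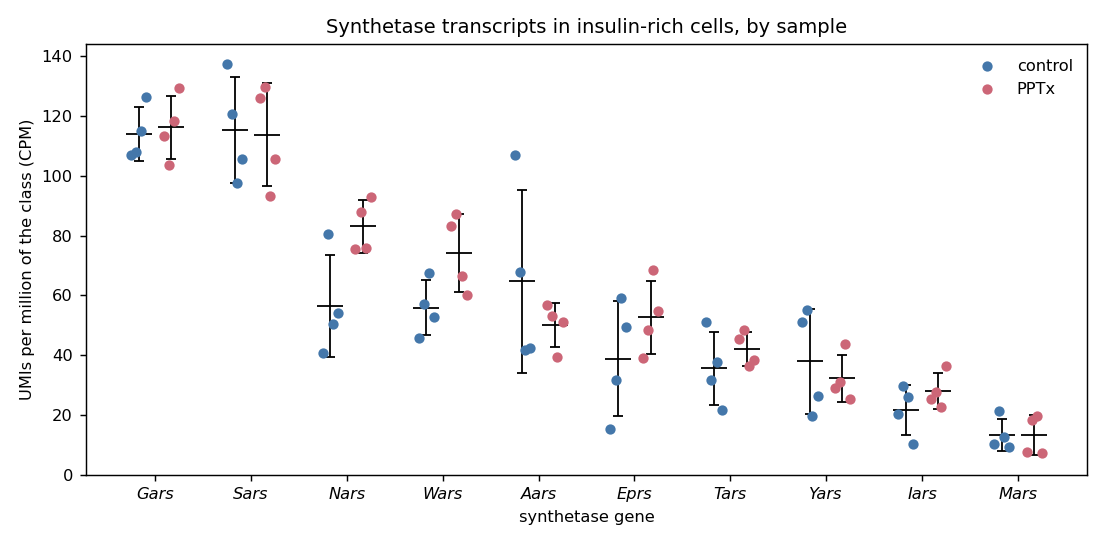
CPM of each synthetase gene (vertical axis) in the insulin-rich cells of 4 control samples (blue points) and 4 PPTx samples (red points), genes ordered by their mean; horizontal ticks are group means and bars are ± 1 SD. The groups overlap for all 10 genes, and Nars has only control replicate 2 (80.5 CPM) within the PPTx range.

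Across the 5911 genes tested, 345 (5.84%) had PPTx and control levels that did not overlap, and none of the 10 was among them. Summed over the 10, insulin-rich cells held 553.8 ± 49.3 CPM (SD, n = 4) in control and 605.8 ± 21.3 CPM (SD, n = 4) in PPTx samples. With the UMIs of 8 hormone genes removed from the totals the sums were 1606 ± 145.8 and 1615 ± 109.4 CPM. The insulin share was 51.0% in PPTx replicate 2 and between 57.1% and 63.0% in the 7 other samples, and its part in the sums was not tested. In insulin-rich cells the summed stellate markers reached 247.9 CPM in a PPTx sample and 90.7 CPM in a control sample, the immune markers 189.2 and 13.4 CPM, the ductal markers 128.7 and 58.6 CPM, the acinar markers 122.1 and 15.3 CPM and the endothelial markers 8.83 and 10.2 CPM. The lowest sums lay between 0 and 10.4 CPM in PPTx and between 0 and 3.44 CPM in control samples. UMIs were found for all members of the stellate, ductal and acinar lists, for 6 of 7 immune markers (Cd3e at 0) and for 3 of 5 endothelial markers (Pecam1 and Cdh5 at 0). Their part in these values was not tested.

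Lists of related genes, also chosen with earlier results known, were read in the same fit. None of the 13 other cytosolic synthetase and scaffold genes was called between PPTx and control, and the groups did not overlap for 2 of them, both higher in PPTx samples, where 5.84% of all genes tested did not overlap. Hars, for histidine, was at 34.8 CPM in PPTx and 15.1 CPM in control samples (log2 fold change 1.01, adjusted p = 0.159 by edgeR), and Vars, for valine, at 35.6 and 23.3 CPM (0.49, adjusted p = 0.596). Of 17 mitochondrial synthetase genes 6 were tested and 0 called, and of 6 elongation factor genes 5 were tested and 0 called. Of 26 genes listed as Atf4 and its targets 14 were tested and 0 were called, with Atf4 itself at 157.2 CPM in PPTx and 159.8 CPM in control samples and Asns, asparagine synthetase, at 74.0 and 72.2 CPM. Of 12 ER chaperone genes, all tested, 3 were called, where 0.288% of all genes were, and all 3 were higher after PPTx, namely Sdf2l1 (log2 fold change 1.05, adjusted p = 0.0114 by edgeR), Creld2 (1.04, adjusted p = 0.0181) and Pdia6 (0.68, adjusted p = 0.039). All 3 calls were lost without control replicate 1 (adjusted p of 0.0761, 0.0761 and 0.128 by edgeR), control replicate 2 (0.104, 0.104 and 0.185) or PPTx replicate 1 (0.0802, 0.0626 and 0.163). That of Creld2 was also lost without control replicate 4 (adjusted p = 0.055), and that of Pdia6 without any 1 sample except control replicate 3. The lists' medians were 0.18 for the other cytosolic synthetases, 0.18 for the mitochondrial synthetases and 0.19 for the elongation factors. They were −0.09 for Atf4 and its targets and 0.59 for the ER chaperones.

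The second comparison set insulin-rich cells against the other-hormone cells of the same sample, which asked whether synthetase transcripts differ between islet cell types. Sars, Nars, Aars and Wars were higher in insulin-rich cells, by 2.83, 2.86, 2.48 and 2.99 times, and Eprs was lower, at 0.614 times. Gars was tested and not called. The 4 genes Mars, Tars, Yars and Iars had too few counts to pass the filter on low counts. The same fit called 1084 of 2507 genes (43.2%), so a call by itself was common in this comparison. A low gene passes the filter more readily when it is high in insulin-rich cells, so the number called among the members that passed is not read as a result. The median over all genes tested was −0.01 on the log2 scale.

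Sars, the seryl-tRNA synthetase, was at 137.6, 120.7, 97.6 and 105.7 CPM in insulin-rich cells of control replicates 1 to 4 and at 0, 92.3, 39.8 and 56.1 CPM in their other-hormone cells. In PPTx replicates 1 to 4 the insulin-rich levels were 126.2, 129.9, 93.4 and 105.7 CPM and the other-hormone levels 26.0, 38.6, 36.0 and 38.5 CPM. All 8 samples were higher in insulin-rich cells, and the highest other-hormone value stayed just under the lowest insulin-rich one. The 0 in control replicate 1 comes from 10 cells and allows up to 111.8 CPM, which is above that lowest value. The log2 fold change was 1.5 (SE 0.20, adjusted p = 7.36e-08 by edgeR).

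Nars, for asparagine, was at 0, 27.7, 46.4 and 10.2 CPM in the other-hormone cells of control replicates 1 to 4 and at 6.49, 27.1, 42.0 and 0 CPM in those of the PPTx replicates. Insulin-rich cells of the same sample were higher in all 8, between 40.8 and 93.0 CPM, but the ranges overlapped. The 0 in PPTx replicate 4 comes from 17 cells and allows up to 57.7 CPM, under the 93.0 CPM of its insulin-rich cells. The 0 in control replicate 1 allows up to 111.8 CPM, above the 40.8 CPM of its insulin-rich cells, so the direction in that sample is not firm. The log2 fold change was 1.52 (SE 0.27, adjusted p = 1.63e-05 by edgeR).

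Wars, for tryptophan, was at 37.3, 0, 26.5 and 25.5 CPM in other-hormone cells of control and 26.0, 30.9, 24.0 and 38.5 CPM in those of PPTx samples. Every insulin-rich value, from 45.9 CPM upward, lay above every other-hormone value. The log2 fold change was 1.58 (SE 0.25, adjusted p = 2.12e-06 by edgeR).

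Aars, for alanine, was at 37.3, 36.9, 13.3 and 30.6 CPM in other-hormone cells of control and 32.5, 19.3, 18.0 and 0 CPM in those of PPTx samples. The measured ranges did not overlap, with 39.4 CPM as the lowest insulin-rich value, but the 0 in PPTx replicate 4 allows up to 57.7 CPM. The log2 fold change was 1.31 (SE 0.27, adjusted p = 0.000112 by edgeR).

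**Figure D2:**
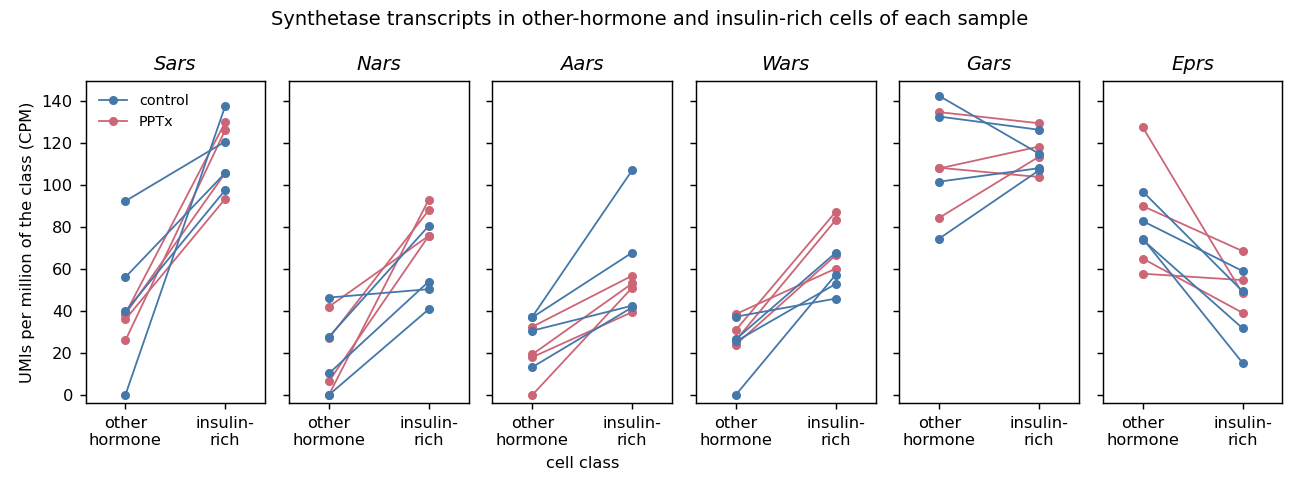
CPM (vertical axis) of 6 synthetase genes in the other-hormone and the insulin-rich cells of each sample, joined by a line per sample (blue control, red PPTx). All 8 lines rise for Sars, Nars, Aars and Wars, 4 rise and 4 fall for Gars, and all 8 fall for Eprs.

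Eprs and Gars did not follow these 4 genes. Eprs was at 74.5, 73.9, 82.8 and 96.9 CPM in the other-hormone cells of control and 64.9, 127.5, 90.0 and 57.7 CPM in those of PPTx samples, and lower in the insulin-rich cells of all 8 samples. Its log2 fold change was −0.70 (SE 0.20, adjusted p = 0.00324 by edgeR). The call was lost without PPTx replicate 2, whose 33 UMIs were the most of any sample (log2 −0.52, adjusted p = 0.0523 by edgeR), and without the filter on low counts (log2 −0.50, adjusted p = 0.113 by edgeR). Gars averaged 110.8 ± 24.4 CPM (SD, n = 8) in other-hormone cells, higher in 4 samples and lower in 4, with a log2 fold change of 0.15 (95% interval −0.15 to 0.44, adjusted p = 0.453 by edgeR).

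Sars and Eprs, picked for their opposite directions, can also be given as shares of each other. Of the UMIs of these 2 genes, Eprs supplied between 10% and 42.3% in the insulin-rich cells of a sample and between 44.4% and 100% in its other-hormone cells, so the measured shares of the classes did not overlap. The 100% in control replicate 1 rests on 2 UMIs.

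Members that the filter left out are given from the fit without it, in which 1823 of 14502 genes were called (12.6%), 5 of the 10 members were called, namely Sars, Nars, Aars, Wars and Yars, and the median of all genes stood at 0.18 on the log2 scale. Yars, for tyrosine, was at 35.1 ± 13.0 CPM (SD, n = 8) in insulin-rich and 15.6 ± 17.5 CPM (SD, n = 8) in other-hormone cells and was called there (log2 fold change 1.12, adjusted p = 0.00649 by edgeR). Iars had a log2 fold change of 0.96 (adjusted p = 0.0554 by edgeR), Tars 0.66 (adjusted p = 0.118) and Mars 0.76 (adjusted p = 0.339). Tars and Mars were higher in the insulin-rich cells of 6 of 8 samples, and Yars and Iars in 7 of 8. Other-hormone cells gave 24 UMIs of Yars, 20 of Iars, 39 of Tars and 13 of Mars in all, which limits what could be seen. Of the members that passed the filter, Nars gave 34, Aars 28 and Wars 32 UMIs there, fewer than Tars, and Sars gave 55. Their other-hormone levels thus rest on few UMIs as well.

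An exact sign-flip test of the paired CPM, which needs no filter, was added after the data had been seen and run for all 10 genes (two-sided, not adjusted, each 0 taken at its measured value). It gave an exact p = 0.00781, the smallest that 8 pairs allow, for Sars, Nars, Aars and Wars, all higher in insulin-rich cells, and for Eprs, lower there. The exact p was 0.0391 for Tars and for Yars, 0.195 for Iars, 0.438 for Mars and 0.531 for Gars.

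Sars, Nars, Aars and Wars were then set against each of the 2 larger other-hormone classes alone. Against Ppy-rich cells (7 samples with at least 5 such cells), Sars, Nars, Aars and Wars were higher in insulin-rich cells with log2 fold changes of 1.51, 1.86, 1.21 and 1.32 and adjusted p of 1.16e-06, 8.29e-06, 0.00693 and 0.000483 by edgeR. Nars was higher in 6 of 7 samples and the 3 others in 7 of 7, although the 0 of Aars in PPTx replicate 4 allows up to 61.8 CPM, above the 51.0 CPM of its insulin-rich cells. Gars was also higher there (0.72, adjusted p = 0.00939), in 6 of 7 samples, and Eprs lower (−0.79, adjusted p = 0.00796), in 5 of 7. Tars (0.25, adjusted p = 0.635) and Yars (0.95, adjusted p = 0.09) were tested and not called, in a fit that called 31% of 2941 genes. The Eprs call was lost without PPTx replicate 2 (log2 −0.61, adjusted p = 0.128 by edgeR), without the filter (log2 −0.38, adjusted p = 0.45) and in DESeq2 (log2 −0.64, adjusted p = 0.104). Yars was called without control replicate 4 (log2 1.42, adjusted p = 0.0254 by edgeR) or control replicate 3 (log2 1.15, adjusted p = 0.0489), and without the filter (log2 1.33, adjusted p = 0.0208). Iars, left out by the filter, was also called without it (log2 1.47, adjusted p = 0.0278 by edgeR), in a fit that called 10.8% of 14340 genes and whose median over all genes was 0.44. In pooled insulin-rich, Ppy-rich and Gcg-rich cells, ductal markers summed to 35.1, 225.1 and 45.3 CPM and acinar markers to 21.0, 43.4 and 8.23 CPM. Endothelial markers were at 3.45, 17.6 and 10.3 CPM, immune markers at 40.5, 9.49 and 2.06 CPM and stellate markers at 66.3, 21.7 and 16.5 CPM. Their part in the differences between classes was not tested.

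Against Gcg-rich cells (6 samples, of which 2 were PPTx), Sars (log2 fold change 1.41, adjusted p = 3.02e-05 by edgeR), Nars (1.06, adjusted p = 0.0179) and Wars (1.96, adjusted p = 5.1e-05) were higher in insulin-rich cells, with measured values higher in 6 of 6 samples each. The 0 of all 3 genes in the Gcg-rich cells of control replicate 1 allows up to 197.0 CPM, above the 137.6, 40.8 and 45.9 CPM of its insulin-rich cells, so the direction is not firm there. The same holds for the 0 of Wars in control replicate 2 (up to 83.5 CPM, against 57.2 CPM) and PPTx replicate 3 (up to 71.5 CPM, against 66.4 CPM). Gars (−0.26, adjusted p = 0.374) and Eprs (−0.56, adjusted p = 0.138) were not called, where 38.9% of 1988 genes were. Nars lost its call without control replicate 4 (log2 0.85, adjusted p = 0.103 by edgeR). Aars did not pass the filter here. In the fit without the filter, which called 9.08% of 14007 genes and whose median over all genes was 0.49, its log2 fold change was 1.77 (adjusted p = 0.00214 by edgeR).

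**Figure D3:**
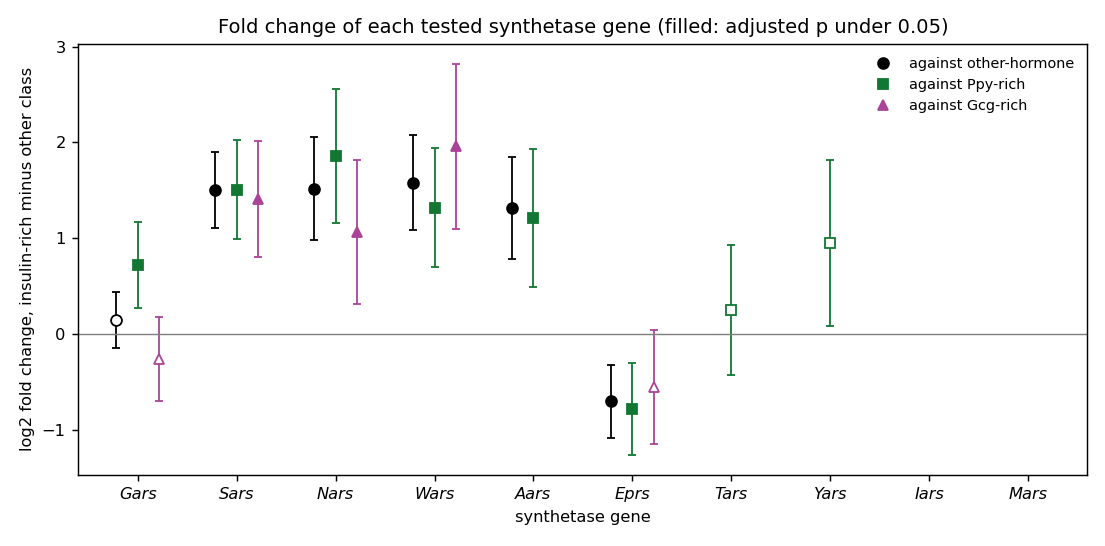
Log2 fold change (vertical axis) of insulin-rich cells over all other-hormone cells (black circles), Ppy-rich cells (green squares) and Gcg-rich cells (purple triangles) for each synthetase gene that passed the filter, with 95% intervals; filled symbols have an adjusted p under 0.05. Sars, Nars and Wars lie between 1.06 and 1.96 in all 3 comparisons, and Eprs lies below 0 in all 3.

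Gars also had unequal levels in the other classes. In the 5 samples with at least 5 cells of both classes, a comparison added once these levels had been seen, Gars was higher in Gcg-rich than in Ppy-rich cells in 5 of 5 samples. It was at 167.0, 162.4 and 210.0 CPM in Gcg-rich and 47.2, 35.6 and 34.1 CPM in Ppy-rich cells of control replicates 2, 3 and 4, and at 214.7 and 214.4 CPM against 90.3 and 50.5 CPM in PPTx replicates 2 and 3. The log2 fold change was 1.51 (SE 0.31, adjusted p = 0.0039 by edgeR), among 532 genes tested of which 62 were called (11.7%). The Ppy-rich values rest on 3, 2, 3, 20 and 6 UMIs, Gars was the only member that passed the filter, and without the filter it was not called (log2 1.42, adjusted p = 0.191 by edgeR). The comparison was picked for this difference, so these values are a description and not support.

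Shares of the pooled synthetase UMIs describe the mix in each class. Sars, Nars, Aars and Wars gave, each in turn, 19.4%, 12.3%, 8.73% and 12.0% of the members' UMIs in insulin-rich cells, 11.5%, 5.93%, 6.32% and 8.30% in Ppy-rich cells and 10.6%, 7.23%, 4.68% and 4.26% in Gcg-rich cells. Eprs gave 8.81%, 26.1% and 20% in the same order, and Gars 19.97%, 20.9% and 36.2%. The members' UMIs numbered 3676, 253 and 235 in these classes. Sst-rich cells gave 20 UMIs of the 10 genes from 13 cells, 10 of them from Gars (242.4 CPM, exact 95% Poisson interval 116.2 to 445.8, counting error only), and no sample had the 5 cells needed for a comparison.

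**Figure D4:**
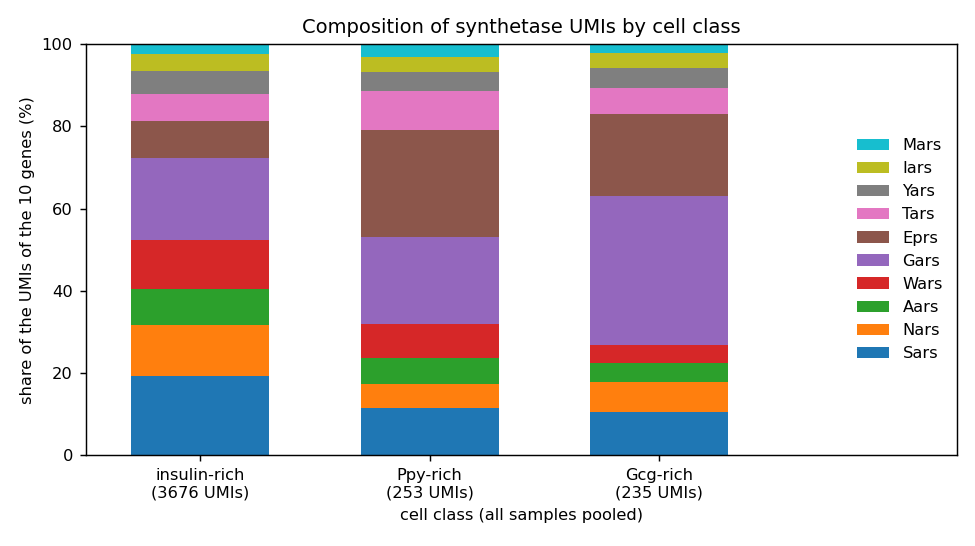
Share (vertical axis, percent) of each of the 10 genes in their summed UMIs, in the pooled insulin-rich, Ppy-rich and Gcg-rich cells of all samples, with the number of UMIs under each bar. Sars takes 19.4%, 11.5% and 10.6%, Gars 19.97%, 20.9% and 36.2%, and Eprs 8.81%, 26.1% and 20%.

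The summed level of the 10 genes was 579.8 ± 44.8 CPM (SD, n = 8) in insulin-rich, 335.8 ± 42.2 CPM (SD, n = 7) in Ppy-rich and 500.2 ± 188.4 CPM (SD, n = 6) in Gcg-rich cells. The Gcg-rich sums ranged from 197.0 to 724.7 CPM and overlapped those of insulin-rich cells, which ranged from 498.4 to 635.3 CPM, whereas the Ppy-rich sums ended at 392.7 CPM. A CPM is a share, so fewer synthetase transcripts per cell and more of other transcripts cannot be told apart. With the 8 hormone genes removed the sums were 1610 ± 119.4 CPM in insulin-rich, 898.5 ± 105.9 in Ppy-rich and 963.3 ± 358.4 in Gcg-rich cells.

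Other translation genes did not all go the way of Sars. Of 5 elongation factor genes tested, 3 were called, all lower in insulin-rich than in other-hormone cells, where 43.2% of all genes were called. They were Eef1a1 (log2 fold change −0.63), Eef1b2 (−0.87) and Eef1g (−0.49), while Eef2 (−0.14) and Eef1d (0.03) were not called. Of the other cytosolic synthetases, only Kars and Dars, for lysine and aspartate and both of the multisynthetase complex, were tested, and Kars was higher (0.57, adjusted p = 0.026 by edgeR) and Dars lower (−0.60, adjusted p = 0.0279). The Kars call was lost without control replicate 4, PPTx replicate 2 or PPTx replicate 3 (adjusted p of 0.0527, 0.11 and 0.0503), and the Dars call without PPTx replicate 1 or 3 (0.153 and 0.0832), without the filter (0.345) and in DESeq2 (0.195). Without the filter Eef1a1 and Eef1g were not called either (adjusted p of 0.112 and 0.403 by edgeR), nor was Eef1g in DESeq2 (log2 −0.38, adjusted p = 0.0596). Among Atf4 and its targets 5 of 8 tested genes were called, against the same 43.2%, with 4 higher, Atf5 (2.73), Mthfd2 (1.41), Asns (1.03) and Cebpg (0.84), and Ddit4 was lower (−1.03). Of 12 ER chaperone genes all 12 had a log2 fold change above 0, and 11 were called, where 43.2% of all genes were. The called ones ran from Herpud1 (0.49, not called without PPTx replicate 2 or 3) to Sdf2l1 (2.53). Of the members called here, the Aars window held TGATGNAA, those of Sars and Eprs did not, and no window was searched for Nars or Wars.

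In other-hormone cells, PPTx and control could be compared for Gars and Eprs only, and edgeR called 0 of these 2, where it called 0.764% of 1440 genes. Neither had an unadjusted p under 0.05, which 138 of the 1440 genes had. DESeq2 called 0 members, where it called 11 of 12324 genes. The log2 fold changes were −0.14 (SE 0.27) for Gars and 0.26 (SE 0.31) for Eprs. Control other-hormone cells were mostly Gcg-rich (95 against 32 Ppy-rich) and PPTx ones mostly Ppy-rich (98 against 19 Gcg-rich), so the pooled values mix a difference between the groups with the makeup of the class.

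Within each class the mean of Gars was higher in PPTx than in control samples, the other way from its pooled value. These comparisons were added after the levels had been seen, cover the 10 genes in both classes (20 exact permutation tests, two-sided and not adjusted), and rest on few UMIs. In Ppy-rich cells Gars was at 47.2, 35.6 and 34.1 CPM in control replicates 2 to 4 (3, 2 and 3 UMIs) and at 81.9, 90.3, 50.5 and 144.2 CPM in PPTx replicates 1 to 4 (11, 20, 6 and 7 UMIs). The groups did not overlap, and the exact permutation test gave p = 0.0571. Yars ran the opposite way there, at 47.2, 35.6 and 45.4 CPM in control and 0, 9.03, 8.42 and 0 CPM in PPTx samples (exact permutation p = 0.0286, the smallest that 3 against 4 samples allow). The 9 control and 3 PPTx UMIs behind these values are few, and the 0 in PPTx replicate 4 allows up to 61.8 CPM, above the control values. Of the 10 genes Gars and Yars were those without overlap in Ppy-rich cells, where 5.95% of 2941 genes did not overlap. Mars and Iars are not among these 2941 genes, which passed the filter against insulin-rich cells. In Gcg-rich cells Gars was at 65.7, 167.0, 162.4 and 210.0 CPM in control replicates 1 to 4 and at 214.7 and 214.4 CPM in PPTx replicates 2 and 3 (exact permutation p = 0.2). Tars was at 0 in control replicate 1, between 21.0 and 27.8 CPM in the other control samples and at 107.4 and 47.6 CPM in PPTx replicates 2 and 3, the latter from 4 and 2 UMIs (exact permutation p = 0.0667, the smallest that 4 against 2 samples allow). The 0 in control replicate 1 allows up to 197.0 CPM. Gars and Tars were the genes of the 10 without overlap there, against 14.2% of 1988 genes. These 1988 are the genes that passed the filter against insulin-rich cells, and Tars is not among them. Eprs overlapped in both classes, with means of 66.2 and 88.0 CPM in Ppy-rich and 96.7 and 119.3 CPM in Gcg-rich cells of control and PPTx samples.

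The difference between the PPTx effect in insulin-rich and in other-hormone cells was called for 0 of the 8 members tested, by edgeR, in a fit that called 0.222% of 3602 genes. DESeq2 called 0 members and 0 of all 14502 genes. At an unadjusted p under 0.05 in edgeR, which 301 of the 3602 genes reached, there was 1 member, Yars. Its other-hormone level was 0, 46.2, 33.1 and 25.5 CPM in control and 0, 7.73, 12.0 and 0 CPM in PPTx samples, from 24 UMIs, and the log2 difference was 2.16 (SE 0.80, adjusted p = 0.316 by edgeR). The 7 other differences lay between −0.28 and 0.58. Simulated differences of 1.5 on the log2 scale were found for 52% of the 177 changed genes that passed the filter in this fit. Smaller ones were not simulated.

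Insulin-rich cells with replication transcripts, those with at least 2 UMIs of 10 mitotic genes such as Top2a and Mki67, numbered 41 of 953. In the 6 samples with at least 3 such cells, their synthetase transcripts were set against those of the sample's remaining insulin-rich cells. By edgeR, 0 of 7 members tested were called at the adjusted threshold and 0 at an unadjusted p under 0.05, DESeq2 called 0, and 5.4% of 2649 genes were called. Aars had a log2 fold change of 0.69 (SE 0.39, adjusted p = 0.356 by edgeR) and was higher in 5 of 6 samples, and Wars had −0.61 (SE 0.42, adjusted p = 0.511) and was lower in 4 of 6. Sars, Nars, Gars, Eprs and Tars had log2 fold changes of 0.14, −0.05, −0.06, −0.04 and −0.38. For Gars, Eprs and Tars the mean CPM over samples ran the other way, at 146.5 against 117.0, 74.2 against 52.9 and 52.1 against 38.1 CPM, and Gars was higher in 5 of 6 samples. In the fit without the filter, Yars had −1.88 (adjusted p = 0.0911 by edgeR), Iars −0.77 (adjusted p = 0.574) and Mars −0.37 (adjusted p = 0.884). The 7 tested members also had lower log2 fold changes there than in the main fit, with Sars at −0.39. The median over all genes was likewise lower, at −0.68 without the filter against −0.10 in the main fit. Replication-positive cells gave 4 UMIs of Yars, 7 of Iars and 5 of Mars. The replication-positive cells held 187 UMIs of the 10 genes, 611.0 CPM, against 574.7 CPM in the pooled remaining insulin-rich cells.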

How the data were processed

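Per the labels and methods, cells were isolated on a ddSEQ instrument, and the sources name different kits for the libraries (SureCell in the methods, Chromium 3′ in the labels). The authors demultiplexed with bcl2fastq, aligned to mm10 and counted with Cell Ranger 2.1.0. The deposited tables hold raw UMI counts per gene symbol and cell, not normalized, and how cells were chosen before deposit is not given in the sources used here. Multimapping or strand settings are likewise not given.

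The filter on cells was 100 to 3000 genes and 100 to 20000 UMIs, which removed 8 of 1240, and the lowest depth of a kept cell was 2005 UMIs. Counts were summed per sample and class and compared by the quasi-likelihood test of edgeR 4.0.16 after filterByExpr and TMM scaling, with Benjamini-Hochberg adjustment over all genes tested and a threshold of 0.05, and with the sample as a block between classes of a sample. Doublets were not removed in the main analysis. Scrublet, at an expected rate of 0.06, called 91 cells, and the tests were repeated without them. Alternatives were DESeq2 1.42.0, its size factors, no filter, no hormone genes, no hormone ratio, cells thinned to 2000 UMIs, all kept cells, the replicate block and leaving out each sample. All tests are two-sided. Counts were simulated with 200 genes changed by 1.5 on the log2 scale, and recovery was taken over the changed genes that passed the filter. It was 95% of 179 between PPTx and control in insulin-rich cells. Between insulin-rich and other-hormone cells it was 100% of 150, and for replication transcripts 80% of 160. Changed genes that the filter removed are not counted in these shares. Samples are pools or single animals, so p-values measure the spread between samples. Intervals and limits from a count of 0 (3 counts) cover counting error only.

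The members, the lists and the tests were chosen with earlier results of these data known. All 10 members are described, and of each list at most 6 called genes by size of change and at most 3 others by level. Herpud1 (as the end of a range), Asns, Hars and Vars (groups not overlapping), the comparison of Gcg-rich with Ppy-rich cells and those of PPTx with control within these classes were picked after values were seen.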

Additional observations from a re-analysis of the deposited data

Results flagged for a closer look

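In groups of 4 samples, 44 sets of values of the members were examined for a sample set apart from the 3 others by Dixon's 95% criterion, and 2 were, where chance gives about 1 in 20. Both belong to the other-hormone cells of control replicate 1. Tars was at 0 CPM there against 25.5 to 29.8 CPM in the 3 other control samples, and the sum of the 10 genes was at 260.8 CPM against 430.6 to 448.7 CPM. These cells number 10 and gave 7 UMIs of the 10 genes, and a count of 0 allows up to 111.8 CPM.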

How the results depend on the processing

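Sars, Nars, Aars and Wars kept their direction and their call against other-hormone and Ppy-rich cells in every alternative in which they were tested, as did Sars and Wars against Gcg-rich cells. For Sars, Nars, Aars and Wars these alternatives numbered 16, 14, 13 and 15 against other-hormone cells and 15, 14, 14 and 14 against Ppy-rich cells. Against Gcg-rich cells they numbered 14 for Sars and 12 for Wars. An alternative in which a gene did not pass the filter is not counted. Log2 fold changes against other-hormone cells ranged over these alternatives from 1.43 to 1.72 for Sars, 1.39 to 1.77 for Nars, 1.25 to 1.53 for Aars and 1.46 to 1.77 for Wars. Fewer members pass the filter in thinned cells, where those called numbered 1 against other-hormone, 2 against Ppy-rich and 1 against Gcg-rich cells, of 860, 836 and 747 genes tested. Leaving out 1 replicate gave 3 to 6 called members against other-hormone cells (3 without control replicate 3 or PPTx replicate 2) and 1 to 4 against Gcg-rich cells (1 without control replicate 3). Between Gcg-rich and Ppy-rich cells, Gars was tested and not called without the filter, while with hormone genes left out, in thinned cells and without control replicate 4 it did not pass the filter. Members called there numbered 0 in these settings and 0 to 1 over the fits that left out a replicate. Against Gcg-rich cells the DESeq2 size factors in edgeR moved the median of all genes from 0.05 to 0.16 on the log2 scale.

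Changes of sign touched only values that were not called. For PPTx against control in insulin-rich cells, Gars was at 0.0016 in thinned cells and at 0.028 as a plain ratio of mean CPM (log2), and leaving out 1 replicate gave −0.15 to 0.0090 for Sars, −0.21 to 0.21 for Mars, −0.20 to 0.0081 for Gars, −0.074 to 0.40 for Eprs, −0.41 to 0.19 for Yars and −0.072 to 0.48 for Iars. Gars turned to 0.15 against Gcg-rich cells without the filter and to 0.037 between PPTx and control other-hormone cells with the replicate block, where it was at 1.235 in Ppy-rich and 0.504 in Gcg-rich cells alone (log2 ratios of mean CPM, added after seeing the data). In the difference of PPTx effects Gars was at 0.26 in thinned cells, 0.00051 without called doublets and 0.041 with no replicate block, and leaving out 1 replicate gave −0.46 to 1.10 for Nars, −0.35 to 0.27 for Aars, −0.17 to 0.061 for Gars and −0.44 to 0.12 for Eprs. For replication transcripts Sars was at −0.39 without the filter, and leaving out 1 replicate gave −0.084 to 0.25 for Sars, −0.36 to 0.11 for Nars, −0.19 to 0.094 for Gars and −0.21 to 0.057 for Eprs. The cause was not tested.

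Same-numbered deviations from the group means correlated at 0.05, 0.04, 0.10 and 0.14 between control and PPTx replicates. Unlike-numbered ones ran from −0.10 to 0.06, and for each PPTx replicate the same-numbered control gave the highest value. Whether the replicate numbers pair the samples was not tested. With the replicate block the calls between PPTx and control in insulin-rich cells went from 17 to 33 genes and those among members stayed at 0. Calls over all genes there were 37 in DESeq2, 90 without the filter, 9 in thinned cells, 32 in all kept cells and 1 to 18 without 1 replicate (1 without control replicate 1 or PPTx replicate 1, 2 without control replicate 2, 10 without control replicate 4). Without the filter and in thinned cells they were 1823 and 412 against other-hormone cells (1084 in the main fit), 1546 and 265 against Ppy-rich cells (913), 1272 and 322 against Gcg-rich cells (773; 449 without control replicate 3), 519 and 25 for replication transcripts (143; 293 in DESeq2) and 37 and 12 between Gcg-rich and Ppy-rich cells (62). For other-hormone cells after PPTx they were 6 by leading hormone alone (11) and 4 to 31 without 1 replicate (4 without control replicate 3, 7 without control replicate 1, PPTx replicate 1 or PPTx replicate 2, 31 without PPTx replicate 3), and for the difference of effects 0 in DESeq2 and with no replicate block, 4 without the filter or in thinned cells and 13 without called doublets (8), and 3 to 13 without 1 replicate (3 without control replicate 3 or PPTx replicate 2, 13 without control replicate 4). Insulin-rich against Sst-rich cells was not run, since no sample had 5 Sst-rich cells. Depth limits the low members, of which Mars gave 13 UMIs outside insulin-rich and mixed cells.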
